A study of Rattus norvegicus with 6 samples.

Results

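The genes whose symbols start with Nduf, which encode most nuclear subunits of respiratory complex I and several of its assembly factors, were described in normal and diabetic rat hearts. On the array, 42 probe sets carried a single Nduf symbol and covered 41 genes, out of 10411 named genes in all. Only Ndufv3 had more than 1 probe set, and each gene was read at its probe set with the highest mean signal over all arrays. They comprise 13 Ndufa, 11 Ndufb, 6 Ndufs, 3 Ndufv and 5 Ndufaf genes, with Ndufab1, Ndufc1 and Ndufc2 as 3 others. Probe sets that named several genes were left out by the same rule, which removed those for Ndufs5 and Ndufa10.

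The study compared total RNA from the left ventricle of 3 control rats (normal 1, 2 and 3) with that of 3 diabetic rats (diabetic 1, 2 and 3), and each heart was hybridised to its own single-colour Affymetrix array. The labels used here give no strain, age, sex, treatment or duration of diabetes, so the groups are known only as normal and diabetic. The whole ventricle was sampled, so that fewer cells of a type and less RNA per cell cannot be told apart. Cardiomyocyte markers were bright in every heart, with signals of 31720 to 39350 for cardiac troponin I (Tnni3) in the normal and 31461 to 36001 in the diabetic arrays. Signals on the array ran from 0.2 to 72999.3, and the array medians from 180.3 to 191.3. Pairs of arrays correlated at r = 0.967 to 0.974 within a group and at 0.937 to 0.959 between groups, across tested probe sets, which are not independent replicates.

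Complex I is the entry point of the respiratory chain in the inner mitochondrial membrane. It takes electrons from NADH, passes them along flavin and iron-sulfur clusters to ubiquinone, and pumps protons across the membrane. Its matrix arm holds the NADH-oxidising N module and the ubiquinone-reducing Q module, and its membrane arm holds the proton-pumping parts, whose core subunits are made from mitochondrial DNA. Accessory subunits, among them most Ndufa and Ndufb proteins, surround this core, and Ndufaf proteins help to build the enzyme without being part of it. In the heart, a tissue rich in mitochondria, complex I takes up the NADH made from pyruvate and fatty acids. Ndufa4 was named as a complex I subunit but is now assigned to cytochrome c oxidase, and its relative Ndufa4l2 is a protein induced in hypoxia, not a structural subunit. Both were kept because the rule goes by symbol.

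The upstream sequences of 4 members are shown for the gene that changed (Ndufa4l2), for a membrane-arm and a matrix-arm subunit that were lower in every diabetic array (Ndufb10 and Ndufs8) and for the subunit that was higher in every diabetic array (Ndufa3). Each is the 250 bases before the gene's start in RefSeq, build GRCr8, read 5′ to 3′ on the gene's strand. Ndufa4l2 lies at chr7:65241919-65242168 (plus strand), Ndufb10 at chr10:14255967-14256216 (minus strand), Ndufs8 at chr1:210573699-210573948 (minus strand) and Ndufa3 at chr1:74515559-74515808 (minus strand). Capitals mark matches on either strand to the motifs searched, which were those of NRF1 (GCGCA, any base, GCGC), of ETS factors such as GABP (CCGGAAG), of YY1 (AANATGGC) and of CREB (TGACGTCA), and the core of the hypoxia response element (ACGTG).
Ndufa4l2: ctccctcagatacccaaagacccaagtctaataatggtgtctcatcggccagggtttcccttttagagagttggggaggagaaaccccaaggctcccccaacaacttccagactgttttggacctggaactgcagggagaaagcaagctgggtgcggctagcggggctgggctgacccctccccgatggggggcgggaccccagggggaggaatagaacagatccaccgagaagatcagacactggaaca
Ndufb10: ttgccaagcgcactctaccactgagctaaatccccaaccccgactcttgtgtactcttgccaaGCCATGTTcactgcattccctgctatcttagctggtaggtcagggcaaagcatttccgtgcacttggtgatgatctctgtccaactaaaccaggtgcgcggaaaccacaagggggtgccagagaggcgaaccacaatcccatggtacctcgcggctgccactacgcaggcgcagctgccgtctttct
Ndufs8: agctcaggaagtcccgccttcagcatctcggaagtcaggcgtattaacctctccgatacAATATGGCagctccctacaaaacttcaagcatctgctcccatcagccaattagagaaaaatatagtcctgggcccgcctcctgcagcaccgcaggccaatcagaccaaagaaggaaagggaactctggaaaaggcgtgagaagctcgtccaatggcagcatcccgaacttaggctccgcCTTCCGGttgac
Ndufa3: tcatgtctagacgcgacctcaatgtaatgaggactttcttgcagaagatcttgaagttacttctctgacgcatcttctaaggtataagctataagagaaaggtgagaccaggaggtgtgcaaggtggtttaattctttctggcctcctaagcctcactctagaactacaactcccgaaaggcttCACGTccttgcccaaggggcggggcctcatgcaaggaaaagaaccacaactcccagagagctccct

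RefSeq gave an upstream window for 39 of the 41 genes (not for Ndufa8 and Ndufb9). NRF1 and GABP are transcription factors known to act on many genes of the respiratory chain. The NRF1 motif was present in 7 of the 39 windows (17.9%), among them those of Ndufa5, Ndufa11, Ndufa12, Ndufs6 and Ndufv3, where 4.17% of 27457 windows of all genes held it. The ETS motif was present in 8 (20.5%, against 7.74% of all windows) and the YY1 motif in 6 (15.4%, against 4.32%). The CREB motif was in 1 (Ndufb2) and the hypoxia core, a short motif that occurs often, in 8 (20.5%, against 16.9%). Of the sequences shown, Ndufb10 holds a YY1 motif, Ndufs8 an ETS and a YY1 motif, and Ndufa3 the hypoxia core. The Ndufa4l2 window held none of the motifs searched. These matches describe letters in the windows and show no binding. NRF1 motifs were found both before genes whose signal was lower in every diabetic array (Ndufa11 and Ndufa12) and before genes with a difference near 0 (Ndufs6 and Ndufv3).

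Of the 41 Nduf genes, 1 fell in the diabetic ventricle, Ndufa4l2, and none rose. A gene was counted as changed where limma gave a p under 0.05 after Benjamini-Hochberg adjustment over 9519 tested probe sets, of which 2.88% changed (1.5% rose and 1.38% fell). All 41 passed the filter on dim probe sets. The other 40, which include every structural subunit measured, did not pass, and their log2 fold changes (log2 of signal plus 16, where a value below 0 means lower in diabetes) ran from -0.44 for Ndufb5 to 0.35 for Ndufa3. At an unadjusted p under 0.05 the count was 2, Ndufa4l2 and Ndufb10, against 19.9% of all tested probe sets, and it was 6 with quantile normalization and 5 with an intensity trend.

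Within those narrow limits the Nduf genes lay mostly on the lower side. The log2 fold change was below 0 for 34 of 41 (82.9%, and for 37 with quantile normalization), where it was below 0 for 52.0% of all tested probe sets, and the median was -0.14 against -0.01. Every diabetic array was below every normal array for 14 of the 41 (34.1%), against 13.6% of tested probe sets, and above for 1, Ndufa3, against 12.1% (25.7% of tested probe sets in either direction). Members share arrays and are not independent, so these counts have no test. The spread between hearts was small for these genes, with a median SD within groups of 0.12 on the log2 scale against 0.21 for all tested probe sets. The median standard error from limma was 0.146, against 0.175 for all tested probe sets and 0.154 for the tenth with the highest mean signal. The 95% interval of limma's fold change lay inside 1.5-fold in either direction for 34 of the 41 (82.9%), and inside 2-fold for 40. It lay inside 1.5-fold for 43.8% of tested probe sets, and for 54.4% of the tenth of them with the highest mean signal. The 7 genes whose interval reached past 1.5-fold were Ndufa4l2, Ndufb2, Ndufb5, Ndufb8, Ndufb10, Ndufv2 and Ndufa3. These intervals do not show that the differences are 0.

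**Figure D1:**
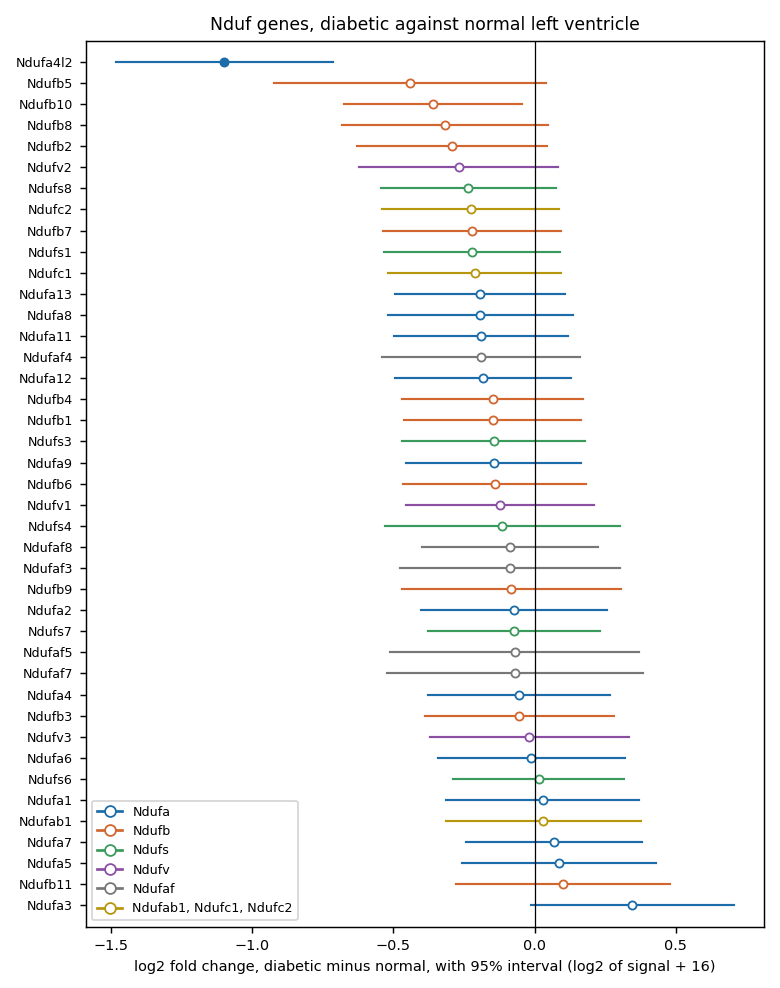
Log2 fold change (diabetic minus normal, on log2 of signal plus 16) of each of the 41 Nduf genes with its 95% interval from limma, coloured by name group and sorted by value. The filled point is the gene that changed, Ndufa4l2 at -1.10, and the open points are the 40 that did not pass, from -0.44 (Ndufb5) to 0.35 (Ndufa3).

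Ndufa4l2 fell at the only probe set it has on the array. Its signal was 318, 361 and 365 in normal 1, 2 and 3 and 189.6, 128 and 149 in diabetic 1, 2 and 3. The diabetic arrays all lay well below the normal ones, with no overlap. Each diabetic signal was also below the median of its own array (191.3, 180.3 and 187.8), and no detection calls were used. Throughout, ± gives the SD of signals (n = 3 per group) and the standard error of log2 differences. The Ndufa4l2 mean went from 348 ± 26.2 to 155 ± 31.3, which is 2.24-fold lower, and the log2 difference was -1.10 ± 0.17 (limma adjusted p = 0.013). With 3 against 3 hearts an exact permutation test of 1 gene cannot go below p = 0.1, so the call rests on limma's spread shared across probe sets. It was narrow, as the adjusted p was 0.0512 without normal 3 and 0.0503 without diabetic 2, with log2 fold changes of -1.07 and -0.98, and 0.0935 with no filter on dim probe sets. Its relative Ndufa4, now counted with cytochrome c oxidase, was at 19606, 16603 and 17548 in the normal and 17036, 18384 and 16253 in the diabetic arrays (log2 -0.06 ± 0.14, limma adjusted p = 0.875), and those groups overlapped.

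Ndufa4l2 is known from vascular mural cells as well as from hypoxic cells, so markers of both were set beside it, from lists added after its value was seen except for the smooth muscle one. None of the 3 tested smooth muscle markers passed, and the summed signal of the 4 measured overlapped between groups (1610.3 to 2075 in normal and 1272 to 1646 in diabetic arrays). None of 7 pericyte markers passed either, but their summed signal was lower in every diabetic array (4295 to 4516 against 5234 to 6206). Rgs5, a regulator of G protein signalling in pericytes, was at 2240.1, 1747 and 2315 in the normal and 1328, 1283 and 1632 in the diabetic arrays (limma adjusted p = 0.114). The list median was -0.06. Of the 7, Rgs5, Abcc9 and Mcam were lower in every diabetic array (log2 -0.56, -0.46 and -0.70), against 13.6% of tested probe sets. The other 4 overlapped, with Cspg4, Kcnj8 and Notch3 at 0.15, 0.10 and 0.03. Of 15 tested hypoxia-responsive genes, Bnip3 and Ndrg1 rose (log2 1.37 and 1.69) and Ldha fell (-0.66), with a median of 0.04 for the list. Among all tested probe sets 1.5% rose and 1.38% fell. Of the 15 genes, 4 were lower and 2 higher in every diabetic array, against 13.6% and 12.1% of tested probe sets. The part of mural cells in the Ndufa4l2 result was not tested.

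In the catalytic core of the matrix arm, none of the 6 measured subunits passed. All 6 had log2 fold changes below 0 (median -0.18), against 52.0% of all tested probe sets. Every diabetic array was below every normal array for 3 of the 6, against 13.6% of tested probe sets. Ndufv2, an iron-sulfur subunit of the N module, was at 20339, 15226 and 16888 in the normal and 13876, 14844 and 14484 in the diabetic arrays. All diabetic arrays were lower, but normal 2 came close to them (log2 -0.27 ± 0.16, limma adjusted p = 0.377). Normal 1 was the highest, and without it the difference was -0.16. Ndufs8, which holds iron-sulfur clusters near the ubiquinone site, was at 5271, 5774 and 5661 against 4709.8, 4461 and 5024, again with no overlap (log2 -0.23 ± 0.14, limma adjusted p = 0.385). Ndufs1, the large iron-sulfur subunit, was at 9946, 9089 and 8946 against 7512, 8219.6 and 8266. It too was lower in all 3 diabetic arrays, by a ratio of means of 0.858 (limma adjusted p = 0.416). Ndufv1, which binds NADH and the flavin, overlapped between groups, with means of 13350.3 ± 1609.8 and 12201 ± 320.1. Ndufs3 and Ndufs7, core subunits of the Q module, differed by -0.14 and -0.07 on the log2 scale and overlapped as well.

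Of the accessory subunits of the matrix arm none passed. Ndufa12 and Ndufa9 were lower in every diabetic array and the others overlapped, where 13.6% of tested probe sets were lower in every one. Ndufs6, a zinc-binding subunit of the N module, had means of 13607 ± 741 and 13729 ± 136, a log2 difference of 0.01 with a 95% interval of -0.29 to 0.32. Ndufs4, whose loss causes Leigh syndrome in humans, was at -0.11 and Ndufv3 at -0.02. The second Ndufv3 probe set, with signals of 67.1 to 151, was at -0.39 (limma adjusted p = 0.36), the same sign with a larger size. Ndufa12, which joins the matrix modules, was at -0.18 ± 0.14, and Ndufa9, which lies beside the ubiquinone channel, at -0.14 ± 0.14. Ndufa2, Ndufa5, Ndufa6 and Ndufa7 ran from -0.07 to 0.09. Grouped by module after a common scheme of assembly, the median was -0.09 over 10 N-module and -0.14 over 5 Q-module genes.

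The lowest values among the structural subunits were those of Ndufb genes, which encode accessory subunits of the distal membrane arm. Of these 11 genes 10 had a log2 fold change below 0 (median -0.15), against 52.0% of all tested probe sets, and none passed. Every diabetic array was below every normal array for 4 of the 11, against 13.6% of tested probe sets. Ndufb10, a subunit on the intermembrane side, was at 7367, 7612 and 7552 in the normal and 5307, 6193 and 6098 in the diabetic arrays. The normal arrays were nearly equal, and each diabetic array was lower (log2 -0.36 ± 0.14, limma adjusted p = 0.197). Ndufb5 was at 14117, 13895 and 12011 against 7027, 11999 and 11177. Its difference of -0.44 ± 0.21 (limma adjusted p = 0.294) rested on diabetic 1, without which it was -0.20, since diabetic 2 was nearly at the level of normal 3. Ndufb2 was at 6305, 7307 and 6856 against 4982, 6144 and 5609, lower in all 3 diabetic arrays (log2 -0.29 ± 0.15). Ndufb7 was likewise lower in each (-0.22 ± 0.14). Ndufb8, a subunit often used on protein blots as a sign of assembled complex I, was at 1601, 1170.1 and 1395 against 1016, 1126 and 1170.5, and the groups overlapped at normal 2 (log2 -0.32 ± 0.16, limma adjusted p = 0.316).

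The other Ndufb genes were closer to 0. Ndufb9, which binds an acyl carrier protein, was at 25300.2 ± 2809 and 24006 ± 3754 (log2 -0.08 ± 0.17), and Ndufb1, Ndufb3, Ndufb4 and Ndufb6 ran from -0.15 to -0.05. Ndufb11 was the only Ndufb gene above 0 (0.10 ± 0.17). Ndufab1, the mitochondrial acyl carrier protein that complex I also contains, was at 0.03 ± 0.15.

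In the proximal membrane arm, 4 of 7 measured subunits were lower in every diabetic array and Ndufa3 was higher in every one (against 13.6% and 12.1% of tested probe sets). Ndufa3, a small membrane-spanning subunit, was at 8531, 7845 and 9339.8 in the normal and 10204, 12719 and 9905 in the diabetic arrays. Its mean was 1.28 times the normal mean, but normal 3 and diabetic 3 lay close together (log2 0.35 ± 0.16, limma adjusted p = 0.268). Diabetic 2 held the highest value, and without it the difference was 0.23. In contrast, Ndufa13, also known as Grim19, was at 9968.5, 9707 and 9277.5 against 8165, 8699 and 8458, with no overlap (log2 -0.19 ± 0.13, limma adjusted p = 0.469). Ndufa11 was at -0.19 ± 0.14, Ndufc1 at -0.21 ± 0.14 and Ndufc2 at -0.23 ± 0.14, each lower in all diabetic arrays. Ndufa8, with a log2 fold change of -0.19 ± 0.14, overlapped between groups, and Ndufa1 was at 0.03 ± 0.15.

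**Figure D2:**
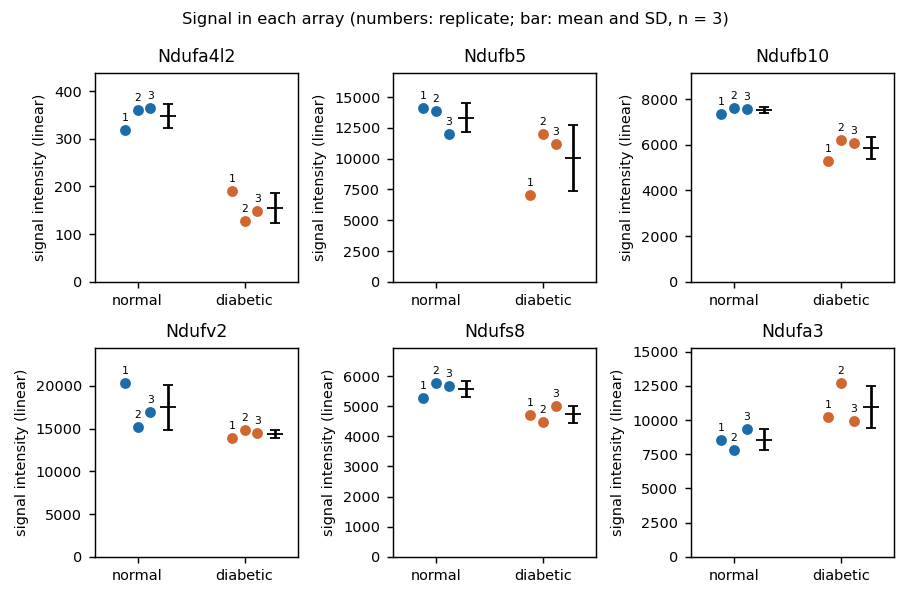
Linear signal intensity in each array for Ndufa4l2, Ndufb5, Ndufb10, Ndufv2, Ndufs8 and Ndufa3, with the replicate number beside each point and the group mean and SD as a bar (n = 3). Ndufa4l2 falls from 348 to 155, the diabetic mean of Ndufb5 is pulled down by diabetic 1 at 7027, and Ndufa3 alone lies higher in the diabetic arrays.

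The Ndufaf assembly factors gave overlapping groups, as most tested probe sets did. The 5 Ndufaf genes ran from -0.19 to -0.07 on the log2 scale and none passed. Normal and diabetic arrays overlapped for all 5, where 25.7% of all tested probe sets did not overlap. Ndufaf4, which with Ndufaf3 helps to build the Q module, was at 797, 595.5 and 690.0 in the normal and 589.5, 586 and 633 in the diabetic arrays (log2 -0.19 ± 0.15, limma adjusted p = 0.548), and without normal 1 it was at -0.088. Ndufaf3 was at -0.09 ± 0.17 and turned to 0.02 without normal 3 and to 0.04 without diabetic 1. Ndufaf5, which modifies Ndufs7, and its partner Ndufaf8 were at -0.07 ± 0.19 and -0.09 ± 0.14. Ndufaf7, a methyltransferase of complex I assembly, was at -0.07 ± 0.20.

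Of 16 complex I assembly factors with other names, 12 were measured and 10 tested, none passed, and their median was -0.17. Every diabetic array was below every normal array for 4 of the 10 and above for 1, against 13.6% and 12.1% of tested probe sets. At an unadjusted p under 0.05 the count was 2, Aifm1 and Dmac2, near the 19.9% of all tested probe sets. Aifm1 was lower in every diabetic array (log2 -0.33 ± 0.14). Tmem126b, which acts in building the membrane arm, was at 1074, 1232 and 1197 against 802, 1026 and 931.5 (log2 -0.34 ± 0.15, limma adjusted p = 0.253), and Ecsit, its partner, at 2039, 2097 and 2032 against 1794, 1763 and 1693 (-0.23 ± 0.13). Both were lower in all diabetic arrays. Dmac2, a membrane-arm assembly factor, lay the other way, at 977, 872 and 835 against 1441, 1321 and 1007 (0.47 ± 0.17, limma adjusted p = 0.172).

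Most genes of the other respiratory complexes also lay below 0. Of 43 tested genes of complexes II to V, 34 had log2 fold changes below 0 (79.1%, median -0.11), close to the 34 of 41 Nduf genes. Every diabetic array was below every normal array for 9 of the 43 (20.9%, against 13.6% of all tested probe sets). The medians were -0.16 for 7 genes of complex II, -0.12 for 8 of complex III, -0.12 for 14 of complex IV and -0.07 for 14 of complex V. Only Cox7a1, a heart and muscle isoform of a cytochrome c oxidase subunit, fell (log2 -1.25 ± 0.21), and none rose. Atp5if1, the inhibitor of ATP synthase, was higher in every diabetic array but did not pass (log2 0.74 ± 0.26, limma adjusted p = 0.158), and was named after its value was seen. Among 15 genes of mitochondrial content and biogenesis, such as citrate synthase and the porins, none passed and the median was -0.06. In the tenth of tested probe sets with the highest mean signal, a set chosen after the values were seen, 52.2% of 952 lay below 0, the median was -0.01, and 19.1% were lower in every diabetic array. The difference between the Nduf genes and these sets was not tested.

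**Figure D3:**
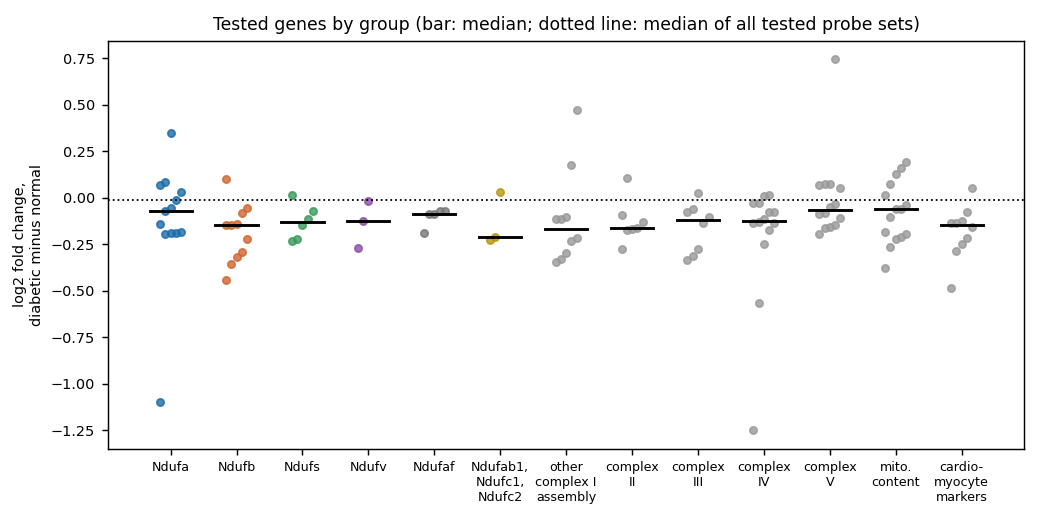
Log2 fold change (diabetic minus normal) of each tested gene, by Nduf name group in colour and for comparison lists in grey, with the median as a bar and the median of all tested probe sets (-0.01) as a dotted line. All medians lie slightly below the line, and the 2 genes that changed are Ndufa4l2 at -1.10 and Cox7a1 at -1.25, while Atp5if1 of complex V, at 0.74, did not pass.

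Array by array, the median Nduf gene was 0.02, 0.02 and -0.04 away from the mean of the normal arrays in normal 1, 2 and 3, and -0.19, -0.11 and -0.15 in diabetic 1, 2 and 3. So each diabetic array lay below each normal array, and diabetic 2 lay nearest to them. Of the 41 genes, 33, 27 and 32 were below the normal mean in diabetic 1, 2 and 3, and 18, 15 and 25 in normal 1, 2 and 3. The median of complexes II to V followed at -0.13, -0.07 and -0.13 in the diabetic arrays, with normal 3 the lowest of its group at -0.06. For the 11 Ndufb genes diabetic 1 stood lowest, at -0.34, against -0.15 and -0.19 in diabetic 2 and 3. For the 5 Ndufaf genes the arrays did not separate, with -0.16 in both normal 1 and diabetic 1.

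Cardiomyocyte markers moved in part with the Nduf genes. Of 10 tested, none passed and 9 lay below 0 (median -0.15), and the median marker was at 0.09, 0.10 and -0.20 in normal 1, 2 and 3 and -0.26, -0.03 and -0.18 in diabetic 1, 2 and 3. Normal 3 was thus as low as the diabetic arrays for these markers but not for the Nduf genes, and their summed signal overlapped between groups (270483 to 337869 and 254498 to 314509). Of 7 tested fibroblast markers 4 fell (Col1a1, Col1a2, Col3a1 and Lum), where 1.38% of tested probe sets fell. The summed signal of the 8 measured was 32497 to 37219.6 in normal and 20856 to 22322 in diabetic arrays. The log2 fold changes of the 7 ran from -1.97 to -0.01, and 3 of them did not pass and overlapped between groups. In the other lists, Nppa of 4 atrial genes rose and Tie1 of 5 endothelial genes fell, against 1.5% and 1.38% of tested probe sets. The other 3 atrial genes did not pass and overlapped between groups. None of 3 macrophage, 2 erythroid and 1 adipocyte genes tested passed. The part of cell makeup in the small Nduf shift was not tested.

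**Figure D4:**
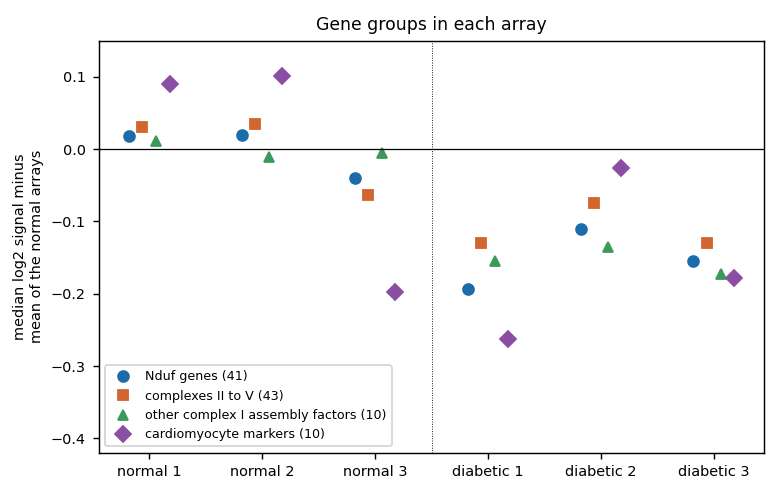
Median over the genes of each list of the log2 signal minus the mean of the normal arrays, for each of the 6 arrays. Nduf genes lie at -0.04 or above in the normal and at -0.11 or below in the diabetic arrays, while the cardiomyocyte markers of normal 3 (-0.20) lie among the diabetic arrays.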

How the data were processed

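Total RNA from 6 rat left ventricles was measured on single-colour Affymetrix arrays, which the labels' protocols describe only as standard. The deposited table holds 1 linear signal intensity per probe set and array. The software and normalization used by the authors: not given in the sources used here. All arrays shared a 2% trimmed mean of 500.2, which shows that the deposited values had been scaled, and they were used as they stand. Such scaling fixes the trimmed mean of each array, not its total signal, so only relative differences are seen.

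Of 15923 probe sets, 57 controls were left out. Names came from the array's annotation, and updating to the current rat gene table changed none of the 41 symbols. Log2(value + 16) was fitted with limma 3.58.1 in R 4.3.3 (group only, two-sided) for probe sets with a mean log2 signal above the 40th percentile (9519 kept, 6347 left out), with Benjamini-Hochberg adjustment over these. Intervals are limma's unadjusted 95% intervals. Values after ± are SD for signals and SE for log2 fold changes. Precision is limited by how few arrays there are.

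The genes named with values were every changed Nduf gene, in each name group the 3 largest differences and the gene with the highest signal, and the catalytic core, and other members were added. Members and lists were chosen with earlier results of these data known. The pericyte and hypoxia lists, the hypoxia motif, the set of highest mean signal and 1 alternative (no filter with an intensity trend) were added after seeing the values. The code was tested on simulated data. The alternatives tried are given with their effect in the closing section. Plots used matplotlib 3.10.9 (Python 3.11.15).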

Additional observations from a re-analysis of the deposited data

How the results depend on the processing

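The median of the Nduf genes stayed below 0 under every alternative tried (each array left out, the replicate block, array weights, a robust or intensity-trended prior, pseudocounts of 64 and 1, median or quantile scaling, the dim filter dropped or set at the 60th percentile, the mean over a gene's probe sets, and current symbols). Quantile normalization moved it to -0.20, and the medians of Ndufb to -0.25, Ndufs to -0.21 and Ndufv to -0.23, and turned Ndufa1 (-0.0100), Ndufab1 (-0.041) and Ndufs6 (-0.095) below 0. The cause was not tested. Averaging both Ndufv3 probe sets moved the Ndufv median to -0.21. With no filter on dim probe sets 18 probe sets and 0 Nduf genes changed by limma (2 Nduf genes at an unadjusted p under 0.05), and Ndufa4l2 kept -1.10 with an adjusted p of 0.0935. With a filter at the 60th percentile, which leaves Ndufa4l2 out, 437 probe sets and 0 of 39 Nduf genes changed (2 at an unadjusted p under 0.05), and with an intensity trend 527 and 1. With both the trend and no filter, Ndufa4l2 passed (adjusted p = 0.0289). At an unadjusted p under 0.05 the Nduf count was 5 with the trend, 7 with the trend and no filter, 6 with quantile normalization and 1 to 3 under the other alternatives.

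With 1 array left out, 100 to 202 probe sets changed (100 without normal 3 or diabetic 2, 135 without diabetic 3, 138 without normal 2) and 0 or 1 Nduf genes. Ndufa4l2 stayed at -1.24 to -0.98, the median of all Nduf genes at -0.18 to -0.11, and 31 to 35 genes were below 0. The medians ran from -0.14 to -0.048 for Ndufa and from -0.19 to -0.028 for Ndufv. Differences near 0 changed sign, with ranges of -0.048 to 0.11 for Ndufa1, -0.070 to 0.096 for Ndufab1, -0.17 to 0.044 for Ndufaf3, -0.18 to 0.053 for Ndufb9, -0.029 to 0.049 for Ndufs6 and -0.13 to 0.066 for Ndufv3.

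Replicate numbers did not pair the arrays (correlations of same-numbered deviations 0.07, 0.01 and 0.02). With the replicate block 183 probe sets and 1 Nduf gene changed, and Ndufa4l2 had an adjusted p of 0.0384. No detection calls were used, so background is known only from the low signals.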
